A study of Mus musculus with 12 samples.

Results

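The 10 genes described here encode enzymes and core subunits that write, copy or remove 2 repressive marks of chromatin, methylation of cytosine in DNA and methylation of lysine 27 on histone H3. They were Dnmt1, Uhrf1, Dnmt3a, Dnmt3b, Tet1, Tet2, Tet3, Ezh2, Suz12 and Eed. Each was found by its symbol in an expression table of mouse splenic B cells, and all 10 were present among 19682 known genes and 8337 unnamed loci. The B cells came from the spleens of BALB/c mice aged 42 to 49 days after birth and were kept for 24 h in RPMI-1640 with serum and antibiotics. The 4 groups were a control and cells given CpG oligodeoxynucleotides (ODN, 1 µM) of class A, B or C, here called CpG-A, CpG-B and CpG-C, with 3 libraries each. CpG ODNs are short synthetic DNAs that are sensed by Toll-like receptor 9 inside endosomes, and B cells that sense them enter the cell cycle. The labels give neither the ODN sequences nor how the B cells were purified. They do not say whether the libraries of a group came from separate mice or cultures, so p-values here measure the spread between libraries, which may be technical.

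DNA methylation is laid down on new sites by Dnmt3a and Dnmt3b and is copied to the daughter strand after replication by Dnmt1, which is brought to hemimethylated DNA by Uhrf1. The Tet enzymes oxidise methylcytosine, which opens a path to its removal. Polycomb repressive complex 2 (PRC2) methylates lysine 27 of histone H3 through Ezh2 or its relative Ezh1, and needs Suz12 and Eed for its activity. In mature B cells, Ezh2 is known to be low at rest and high in dividing germinal centre cells, and loss of TET2 or of DNMT3A is a known step in human blood cancers.

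Values are FPKM, fragments per kilobase of transcript, scaled by the mapped fragments of each library, as the authors deposited them, so levels of different genes are compared per length. A log2 change is a difference between group means of log2(FPKM + 1), given ± its standard error (SE) from limma, and a gene was called at an adjusted p under 0.05 over the 15853 genes tested, those above 1 FPKM in at least 3 libraries. Depth, estimated from the steps between low FPKM values, was 14.45 to 17.45 M (mega) fragments in the control libraries, 21.5 to 22.9 after CpG-A, 24.45 to 25.2 after CpG-B and 24.7 to 25.95 after CpG-C. The 8 B cell markers summed to between 2694 and 4533 FPKM in every library. The summed markers of T cells (at most 5.71 FPKM), myeloid cells (at most 12.8), NK cells (at most 3.11) and erythroid cells and platelets (at most 6.36) were far lower. Low signal differed between groups: the unnamed loci had a median of 1.15 to 2.37 FPKM in the control libraries and at most 0.42 in any CpG library. In GENCODE M21, Eed shares 261 exonic bases with a gene on the opposite strand, Suz12 178, Ezh2 174, Dnmt3a 133 and Tet2 43, and whether the authors counted by strand is not stated, so fragments of such pairs cannot be told apart. The third library of CpG-B and that of CpG-C, named CpG-B 3 and CpG-C 3 below, stood apart from the other 2 of their groups, and results that rest on them are given with and without them.

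Of the 9 genes that passed the filter, 4 rose with every CpG class: Uhrf1, Ezh2, Dnmt1 and Suz12, the last not after CpG-B on a TPM scale. The gene for the oxidising enzyme Tet3 fell with every class. Dnmt3b was called higher after CpG-A only, and Dnmt3a, Tet2 and Eed were not called against the control. With CpG-A, 5 genes were called higher and 1 lower, where 23.6% of all genes tested were called higher and 42.1% lower. With CpG-B, 4 were higher and 1 lower, beside 25.7% and 51.8% of all genes. With CpG-C, 4 were higher and 1 lower, beside 26.1% and 51.3% of all genes. Among the 10860 known genes tested the percentages were 32.8 and 22.1 after CpG-A, 34.8 and 35.3 after CpG-B, and 35.7 and 34.5 after CpG-C, so a call alone was common. The median log2 change over all genes tested was −0.16, −0.31 and −0.31 after CpG-A, CpG-B and CpG-C, and over known genes it was 0.05, 0.0024 and 0.015. The RNA is from bulk cells, so a change in the share of cells that express a gene and a change in RNA per cell cannot be told apart.

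**Figure D1:**
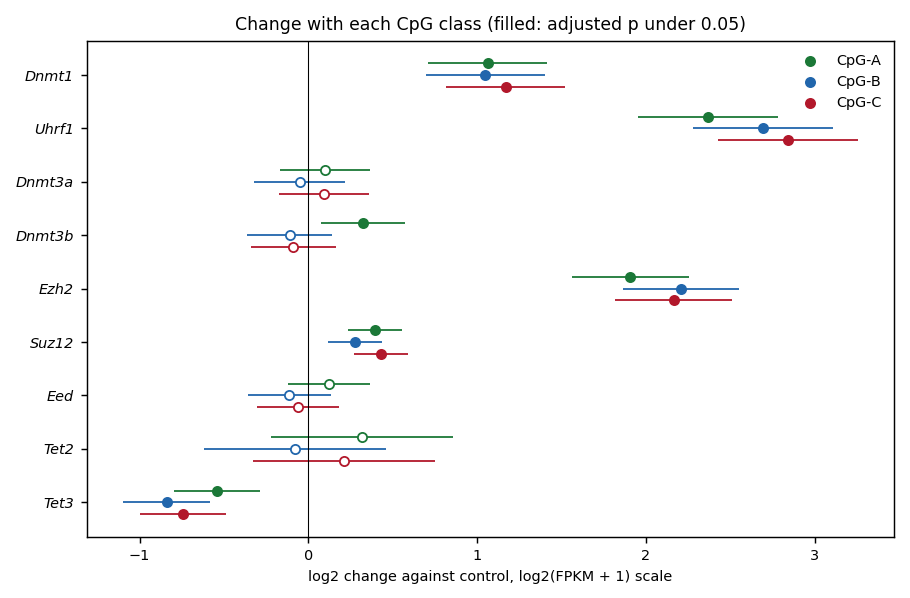
Log2 change against control on the log2(FPKM + 1) scale (x axis) of the 9 genes tested (y axis), with 95% confidence intervals from limma, for CpG-A, CpG-B and CpG-C, and filled points for an adjusted p under 0.05. Uhrf1 and Ezh2 lie farthest to the right at 1.91 to 2.84, Dnmt1 near 1.1, and Tet3 alone lies to the left in all 3 comparisons.

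E2F factors are known to act at the promoters of many cell cycle genes, so the starts of the 10 genes were searched for short E2F sequences. Whether E2F factors act on these genes was not tested. RefSeq windows of 300 bases (250 before the start and 50 from it; build GRCm38.p6, the same sequence as the table's mm10) were matched for all 10 genes, 15 windows in all, since some genes have several starts. They were searched on both strands for 2 short E2F cores, TTCCCGC and, as the other, TTGGCGC, which do not overlap in the matches found. Each of the 4 genes that rose with all classes held 1 match in 1 of its windows, and the windows of the other 6 genes held none. By window, 4 of the 15 held a match, beside 6.81% of all 32851 windows and 12.2% of the 11207 windows of known genes tested. The cores were chosen with earlier results of these data known. The capitals below mark the match, and the Tet3 window, which has none, is set beside them because Tet3 fell. That window lies inside the table's Tet3 entry, which begins at base 83457134 on the minus strand, so it is not the start of that entry. The same holds for the matched windows of Dnmt1 and Ezh2, whose entries begin at bases 20959888 and 47637192 on the minus strand. The Dnmt1 window at the start of its entry (chr9:20959839-20960138) held no match. The Tet1 window (chr10:62887275-62887574) lies outside the table's Tet1 entry, which begins at base 62880014 on the minus strand.
Dnmt1, chr9:20952574-20952873, minus strand: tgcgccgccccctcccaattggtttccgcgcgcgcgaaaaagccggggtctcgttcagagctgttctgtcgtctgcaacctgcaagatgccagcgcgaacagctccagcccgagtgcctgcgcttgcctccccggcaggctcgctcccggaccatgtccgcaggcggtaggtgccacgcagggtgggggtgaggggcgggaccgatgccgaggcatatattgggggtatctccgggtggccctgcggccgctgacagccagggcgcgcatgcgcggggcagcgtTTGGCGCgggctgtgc
Uhrf1, chr17:56303087-56303386, plus strand: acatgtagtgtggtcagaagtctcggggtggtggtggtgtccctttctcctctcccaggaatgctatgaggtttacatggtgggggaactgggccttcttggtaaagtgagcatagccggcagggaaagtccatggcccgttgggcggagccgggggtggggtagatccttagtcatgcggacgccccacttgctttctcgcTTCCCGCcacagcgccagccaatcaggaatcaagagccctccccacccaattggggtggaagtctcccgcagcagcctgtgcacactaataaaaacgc
Ezh2, chr6:47594981-47595280, minus strand: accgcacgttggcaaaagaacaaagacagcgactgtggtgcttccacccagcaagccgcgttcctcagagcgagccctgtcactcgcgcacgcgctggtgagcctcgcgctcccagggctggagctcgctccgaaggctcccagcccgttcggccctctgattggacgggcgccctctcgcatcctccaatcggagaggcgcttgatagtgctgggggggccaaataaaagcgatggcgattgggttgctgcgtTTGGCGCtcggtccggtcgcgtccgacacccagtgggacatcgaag
Suz12, chr11:79992856-79993155, plus strand: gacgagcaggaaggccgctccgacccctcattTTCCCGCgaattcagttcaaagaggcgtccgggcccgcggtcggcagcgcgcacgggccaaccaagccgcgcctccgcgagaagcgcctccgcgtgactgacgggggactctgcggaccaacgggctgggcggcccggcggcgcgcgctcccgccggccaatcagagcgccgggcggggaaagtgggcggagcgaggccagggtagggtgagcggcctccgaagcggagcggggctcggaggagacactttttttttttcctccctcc
Tet3, chr6:83441629-83441928, minus strand: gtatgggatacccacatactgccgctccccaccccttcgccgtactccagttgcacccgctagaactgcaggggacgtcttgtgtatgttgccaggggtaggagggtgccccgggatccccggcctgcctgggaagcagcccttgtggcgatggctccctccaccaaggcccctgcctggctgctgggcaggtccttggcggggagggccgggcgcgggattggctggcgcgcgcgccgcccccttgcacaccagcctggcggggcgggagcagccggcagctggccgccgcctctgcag

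Counted from the start base as 0, the match began at base 34 in Dnmt1, 48 bases before the start in Uhrf1, at base 4 in Ezh2 and 218 bases before it in Suz12. Dnmt1 had 3 windows and Uhrf1 had 2, and their other windows held no match to either core. Only these 2 cores were searched, so the windows may hold other E2F-like sequences. A match describes the letters and is not evidence of binding. The cell cycle element TTTGAA, searched the same way, was found in 4 of the 10 genes (Dnmt1, Dnmt3b, Suz12 and Eed). It was in 1 window of each, of 15 windows in all, beside 17.9% of all windows and 12.3% of those of known genes tested. CG dinucleotides numbered 57 in the Tet2 window, 47 in the richest Dnmt3a window and 41 in that of Suz12, against a median of 21 over the windows of known genes tested. The lowest were 2 and 12 in Dnmt1 windows, 12 in a Uhrf1 window, 17 in those of Tet1 and Eed and 18 in a Dnmt3a window.

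Uhrf1, the protein that recognises hemimethylated DNA and guides Dnmt1 to it, had the largest change of the 9 genes in each comparison with the control. The gene lies on the plus strand at chr17:56303337-56323486. Its level was 10.6, 9.75 and 9.52 FPKM in the 3 control libraries and 53.4, 59.0 and 54.1 after CpG-A. It was 60.5, 60.6 and 92.8 after CpG-B and 64.8, 66.9 and 107 after CpG-C. No CpG library came near the control range, and CpG-B 3 and CpG-C 3 were the highest. The log2 change was 2.37 ± 0.19 after CpG-A (limma adjusted p = 2.87e-06), 2.69 ± 0.19 after CpG-B (1.83e-07) and 2.84 ± 0.19 after CpG-C (1.24e-07). Mean levels were 5.57, 7.16 and 7.98 times the control mean. Without CpG-B 3 and CpG-C 3, the changes after CpG-B and CpG-C were 2.49 and 2.61.

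Dnmt1, the methyltransferase that copies existing methylation, rose less than its guide. It lies on the minus strand at chr9:20907206-20959888. The control libraries held 27.4, 25.5 and 29.1 FPKM and the CpG-A libraries 57.9, 61.6 and 55.0. With CpG-B it was 50.9, 50.1 and 74.7, and after CpG-C 55.0, 56.3 and 79.2. The control libraries were again below every CpG library, and the first and second libraries of CpG-B lay below all 3 of CpG-A. The log2 change was 1.06 ± 0.16 after CpG-A (limma adjusted p = 0.000102), 1.05 ± 0.16 after CpG-B (6.60e-05) and 1.17 ± 0.16 after CpG-C (2.62e-05), about 2.13 to 2.32 times the control mean. The ratio of Uhrf1 to Dnmt1 FPKM was 0.327 to 0.387 in the control libraries, 0.923 to 0.983 after CpG-A and 1.18 to 1.35 after CpG-B and CpG-C, and the ranges of control, CpG-A and the other classes did not overlap.

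**Figure D2:**
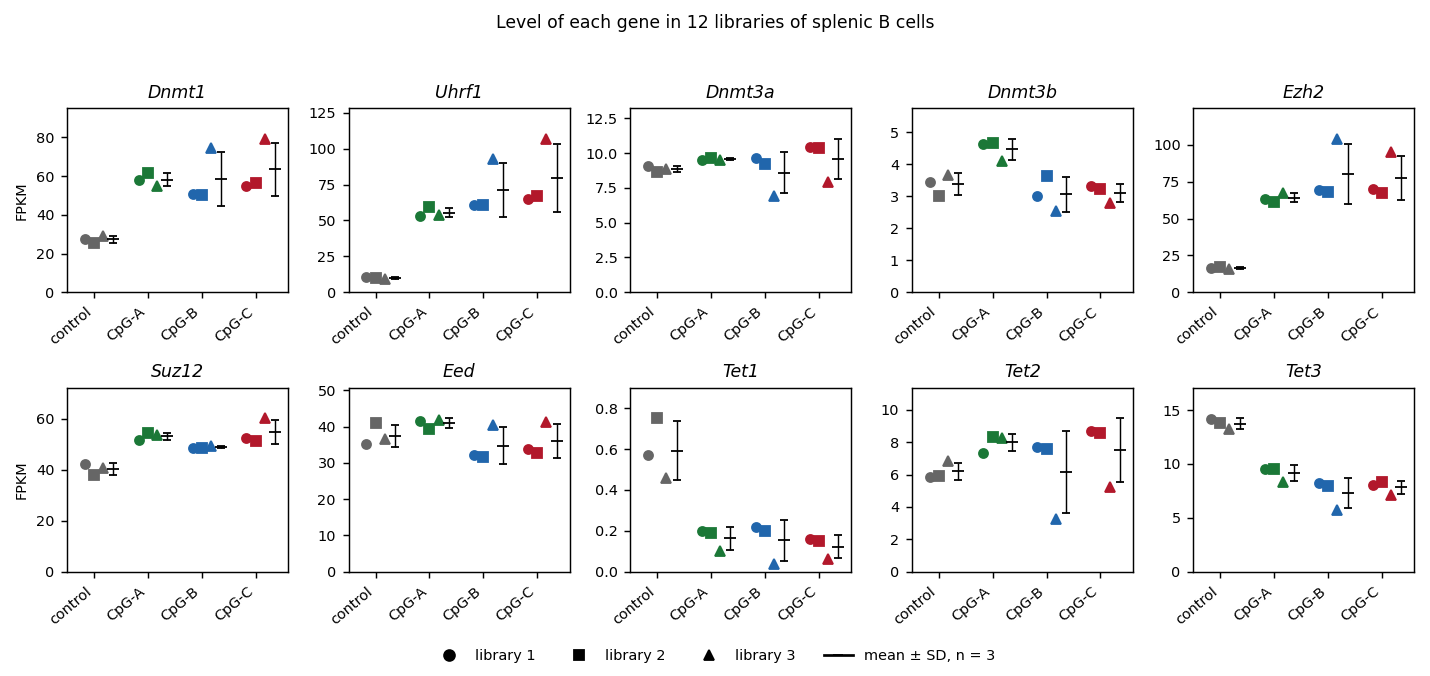
FPKM (y axis, from 0) of each of the 10 genes in the 12 libraries, by group (x axis), with symbols for library 1, 2 and 3 and the mean ± SD of 3 libraries beside them. Uhrf1, Ezh2 and Dnmt1 show control points far below all CpG points, and the triangles of CpG-B and CpG-C stand away from the other 2 points in most panels.

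Ezh2, the main catalytic subunit of PRC2 in dividing cells, had the second largest change after Uhrf1 in each comparison with the control. Its control levels were 16.3, 17.1 and 15.6 FPKM, and its CpG-A levels 63.5, 61.3 and 67.3. They were 69.4, 68.1 and 104 after CpG-B and 70.0, 67.5 and 95.0 after CpG-C. The lowest CpG library, at 61.3 FPKM, was far above the highest control library, at 17.1. The log2 change was 1.91 ± 0.16 after CpG-A (limma adjusted p = 3.57e-06), 2.21 ± 0.16 after CpG-B (2.07e-07) and 2.16 ± 0.16 after CpG-C (2.40e-07), which is 3.92, 4.93 and 4.75 times the control mean. Without CpG-B 3 and CpG-C 3 it was 2.01 with either class.

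Suz12 and Eed, the subunits that hold PRC2 together and read its mark, did not follow Ezh2 in size. Suz12 (plus strand, chr11:79993106-80034123) stood at 42.4, 37.9 and 40.7 FPKM in the control, 51.8, 54.4 and 53.5 after CpG-A, 48.7, 48.7 and 49.4 after CpG-B and 52.7, 51.3 and 60.2 after CpG-C. The groups did not overlap with the control, but the steps were small. The log2 change was 0.39 ± 0.07 after CpG-A (limma adjusted p = 0.000452), 0.27 ± 0.07 after CpG-B (0.00433) and 0.43 ± 0.07 after CpG-C (0.000162), and after rescaling every library to the same total (TPM) that after CpG-B turned to −0.02 and was not called. Eed (minus strand, chr7:89954654-89980976) was 35.1, 40.9 and 36.5 FPKM in the control, 41.5, 39.4 and 41.9 after CpG-A, 32.3, 31.5 and 40.6 after CpG-B and 33.7, 32.8 and 41.4 after CpG-C. Its groups overlapped with the control in each comparison, and its log2 changes of 0.12, −0.11 and −0.06 (each ± 0.11) were not called. On the TPM scale Eed was called lower after CpG-B (−0.41, limma adjusted p = 0.00122) and after CpG-C (−0.32, 0.00699). Without CpG-B 3 and CpG-C 3, Eed was called lower after CpG-B (−0.22, limma adjusted p = 0.00859) and after CpG-C (−0.17, 0.0351).

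The balance of the PRC2 transcripts moved towards Ezh2. In the control libraries the order was Suz12 and Eed, whose ranges overlapped, then Dnmt1 and then Ezh2. With CpG-A and CpG-B the highest mean of the 10 genes was that of Ezh2, and after CpG-C it was that of Uhrf1 with Ezh2 next, though these neighbours overlapped. FPKM of Ezh2 was 0.382 to 0.451 of that of Suz12 in the control, 1.13 to 1.26 after CpG-A, 1.40 to 2.10 after CpG-B and 1.32 to 1.58 after CpG-C. The table's Ezh2 entry spans chr6:47530274-47637192 on the minus strand, 41.9 kilobases beyond the annotated start of the gene in GENCODE M21, and 3 of its 5 transcripts were assembled by the authors, so its level covers more than the annotated gene.

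Ezh1, the relative of Ezh2 used more in cells that do not divide, fell as Ezh2 rose. It was 27.7, 25 and 27.1 FPKM in the control, 18.9, 18.6 and 18.4 after CpG-A, 11.8, 11.7 and 10.7 after CpG-B and 13.2, 13.0 and 9.54 after CpG-C. The 4 groups did not overlap except for CpG-B and CpG-C. Its log2 change was −0.49 ± 0.11 after CpG-A (limma adjusted p = 0.00142), −1.15 ± 0.11 after CpG-B (1.23e-06) and −1.11 ± 0.11 after CpG-C (1.57e-06). Ezh2 made up 36.5% to 40.6% of the summed FPKM of both in the control libraries, 76.8% to 78.5% after CpG-A, 85.3% to 90.7% after CpG-B and 83.8% to 90.9% after CpG-C.

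**Figure D3:**
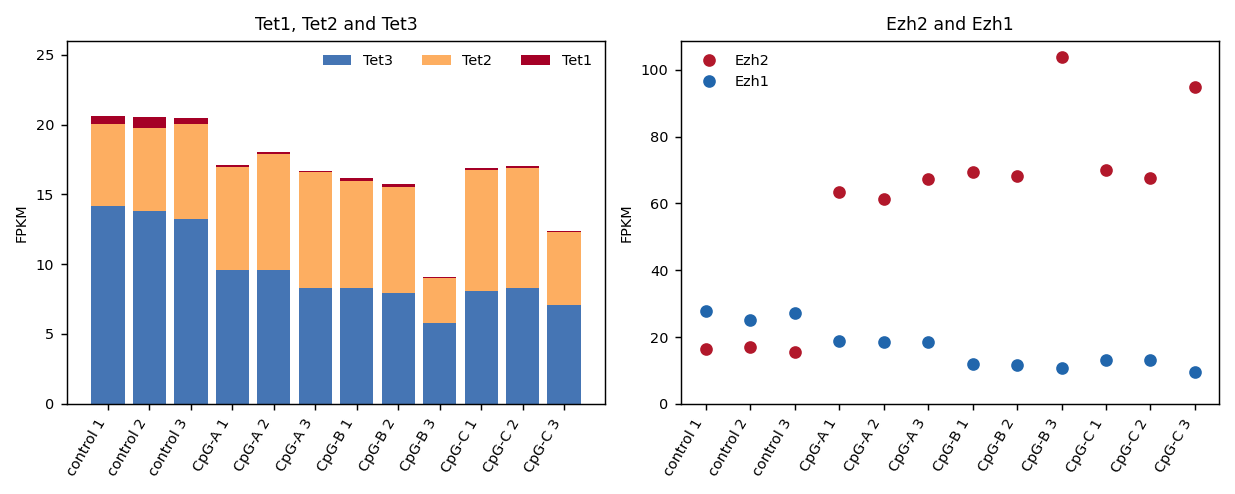
Left, stacked bars of the FPKM of Tet3, Tet2 and Tet1 in each of the 12 libraries. Right, FPKM of Ezh2 and Ezh1 in the same libraries, where Ezh1 is above Ezh2 in the 3 control libraries and below it in all 9 CpG libraries.

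The de novo methyltransferases had log2 changes of at most 0.32 in size against the control. Dnmt3a (plus strand, chr12:3806520-3914443) was 9.08, 8.64 and 8.88 FPKM in the control, 9.53, 9.64 and 9.49 after CpG-A, 9.66, 9.21 and 6.92 after CpG-B and 10.5, 10.4 and 7.95 after CpG-C. CpG-B 3 and CpG-C 3 were the lowest of all 12. Its log2 changes of 0.10, −0.05 and 0.09 (each ± 0.12) were not called, with limma adjusted p of 0.503, 0.709 and 0.498, and the widest of the 95% intervals ran from −0.32 to 0.22. Without CpG-B 3 and CpG-C 3 Dnmt3a was called higher after CpG-C (0.21, limma adjusted p = 0.00318).

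Dnmt3b, the other de novo enzyme (plus strand, chr2:153649449-153687730), was lower throughout at 2.55 to 4.67 FPKM. It stood at 3.45, 3.0 and 3.68 FPKM in the control, 4.65, 4.67 and 4.10 after CpG-A, 3.02, 3.63 and 2.55 after CpG-B and 3.31, 3.23 and 2.80 after CpG-C. The 3 CpG-A libraries were the highest of the 12. The log2 change after CpG-A was 0.32 ± 0.12 (limma adjusted p = 0.0260). This call was lost without control library 1 (0.34, adjusted p = 0.0554), control library 2 (0.26, 0.0974), CpG-A library 1 (0.30, 0.0770) or CpG-A library 2 (0.30, 0.0808), and under 3 other scalings. With CpG-B and CpG-C the changes of −0.11 ± 0.12 and −0.09 ± 0.12 were not called, though on the TPM scale that after CpG-B was (−0.39, limma adjusted p = 0.0316). The catalytically inactive partner of the de novo enzymes, Dnmt3l, was 1.84 ± 0.866 FPKM in the control and 0.317 ± 0.157 after CpG-A (SD, n = 3) and was called lower with every class, but at a level near that of the unnamed loci in the same libraries. The part of that low signal in its fall was not tested.

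Among the oxidising enzymes Tet3 was the most abundant in the control and fell with all 3 classes. It lies on the minus strand at chr6:83362373-83457134. Its levels were 14.2, 13.8 and 13.2 FPKM in the control, 9.57, 9.55 and 8.32 after CpG-A, 8.26, 7.94 and 5.76 after CpG-B and 8.05, 8.31 and 7.10 after CpG-C. Every CpG library was below every control library. The log2 change was −0.54 ± 0.12 after CpG-A (limma adjusted p = 0.00146), −0.84 ± 0.12 after CpG-B (3.16e-05) and −0.74 ± 0.12 after CpG-C (8.99e-05). Taken relative to the median of all genes, these were −0.38, −0.52 and −0.44, and relative to that of known genes −0.59, −0.84 and −0.76.

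Tet2, the family member most often lost in blood cancers, had the widest SE of the 9 genes tested on the log2(FPKM + 1) scale. It lies on the minus strand at chr3:133463536-133545345. It was 5.88, 5.94 and 6.82 FPKM in the control, 7.36, 8.32 and 8.27 after CpG-A, 7.68, 7.59 and 3.26 after CpG-B and 8.67, 8.60 and 5.23 after CpG-C. The first and second libraries of every CpG group lay above the control range, and CpG-B 3 and CpG-C 3 lay below it. Its log2 changes of 0.32, −0.08 and 0.21 had an SE of 0.25, and none was called (limma adjusted p = 0.277, 0.782 and 0.448). Without CpG-B 3 and CpG-C 3 Tet2 was called higher after CpG-A (0.32, limma adjusted p = 0.00180), CpG-B (0.26, 0.00918) and CpG-C (0.42, 0.000516), so the sign after CpG-B turned.

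Tet1 did not pass the filter, since no library reached 1 FPKM. It lies on the minus strand at chr10:62804570-62880014. Its levels were 0.57, 0.75 and 0.46 FPKM in the control, 0.20, 0.19 and 0.10 after CpG-A, 0.22, 0.20 and 0.04 after CpG-B and 0.16, 0.15 and 0.06 after CpG-C, which correspond to an estimated 14 to 152 fragments. The control libraries were above all CpG libraries. Fitted without a filter, its log2 change was −0.45, −0.47 and −0.50 (each ± 0.08) after CpG-A, CpG-B and CpG-C (limma adjusted p = 0.000739, 0.000397 and 0.000233). Low signal moved in the same direction: 1292 olfactory and vomeronasal receptor genes, which B cells are not known to use, averaged 0.153 to 0.251 FPKM in the control libraries, 0.0344 to 0.0614 after CpG-A and at most 0.0147 after CpG-B and CpG-C. Its part in the fall of Tet1 was not tested.

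The summed FPKM of the 3 Tet genes was 20.5 to 20.6 in the control libraries, 16.7 to 18.1 after CpG-A, 9.06 to 16.2 after CpG-B and 12.4 to 17.1 after CpG-C. Tet3 supplied 64.5% to 68.7% of it in the control and 49.9% to 55.9% after CpG-A. Tet2 reached 42.2% to 51.4% of the sum after CpG-C, against 28.5% to 33.3% in the control. With CpG-B the share of Tet3 was 50.5% to 51.1% in the first and second libraries and 63.6% in the third.

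Few of these genes were called between the CpG classes. Between CpG-B and CpG-A, 1 of the 9 genes was called, Dnmt3b, lower after CpG-B by −0.44 ± 0.12 (limma adjusted p = 0.0108), where 13.1% of all genes tested were called higher and 31.5% lower. Between CpG-C and CpG-A the same gene was called, lower after CpG-C by −0.41 ± 0.12 (limma adjusted p = 0.0163), beside 11.4% higher and 29.3% lower over all genes. That second call was lost without CpG-A library 1 (−0.39, adjusted p = 0.0594) or CpG-A library 2 (−0.39, 0.0599). Both comparisons use the same CpG-A libraries. On the TPM scale 4 of the 9 genes were called between CpG-B and CpG-A, all lower: Dnmt3b, Tet3, Suz12 (−0.28, limma adjusted p = 0.0114) and Eed (−0.40, 0.00495). Of the 19887 genes tested on that scale, 1558 were called higher and 8919 lower, so a lower call was common there. Leaving out CpG-B 3 and CpG-C 3 gave 3 called genes both between CpG-B and CpG-A and between CpG-C and CpG-A. The share of all genes called without these libraries is not given here, so the rise to 3 is not read as a result about the 9 genes. Between CpG-C and CpG-B, limma called 0 of the 9 genes, beside 0.114% called higher and 0.0694% lower over all genes. The unadjusted limma p was under 0.05 for 0 of the 9. It was so for 5 in the fit that pairs these libraries by number, which also called 0. The share of all genes under that unadjusted p was not counted, so these counts are not read as results about the 9 genes.

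Several differences between classes stood close to the threshold. Uhrf1 was 0.33 ± 0.19 higher after CpG-B than after CpG-A and 0.47 ± 0.19 higher after CpG-C than after CpG-A (limma adjusted p = 0.162 and 0.0631), with no overlap of libraries. The second was called without CpG-B 3 (adjusted p = 0.0307), and at 0.24 without CpG-B 3 and CpG-C 3 (0.00840). Tet3 was 0.30 ± 0.12 lower after CpG-B than after CpG-A (log2 change −0.30, limma adjusted p = 0.0571) and was called without CpG-B library 1 (−0.38, 0.0381), while without CpG-B 3 and CpG-C 3 it was −0.15 (0.0872). Eed was not called between CpG-B and CpG-A (−0.24 ± 0.11, limma adjusted p = 0.0971) or between CpG-C and CpG-A (−0.19 ± 0.11, 0.179). It was called lower after CpG-B without CpG-B 3 (−0.35, 0.0209) and, without CpG-B 3 and CpG-C 3, after both classes (−0.35, 0.00165, and −0.29, 0.00500). For Ezh2 the 95% interval of the log2 difference ran from −0.05 to 0.64 between CpG-B and CpG-A and from −0.39 to 0.30 between CpG-C and CpG-B. For Dnmt1 it ran from −0.36 to 0.34 between CpG-B and CpG-A, and without CpG-B 3 and CpG-C 3 Dnmt1 was called lower after CpG-B (−0.20, limma adjusted p = 0.0296).

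The third libraries of CpG-B and CpG-C split the 10 genes into 5 that were higher and 5 that were lower. In both, Dnmt1, Uhrf1, Ezh2, Suz12 and Eed were above the other 2 libraries of the group, and Dnmt3a, Dnmt3b, Tet1, Tet2 and Tet3 were below them. Of known genes tested, 32.8% were above and 38.7% below in both. On the log2(FPKM + 1) scale the difference between the third library and the mean of the others was 0.61 after CpG-B and 0.69 after CpG-C for Uhrf1. It was 0.59 and 0.46 for Ezh2, 0.56 and 0.50 for Dnmt1, and 0.34 and 0.31 for Eed. For Suz12 it was only 0.02 after CpG-B and 0.21 after CpG-C. It was −1.02 and −0.63 for Tet2, −0.43 and −0.18 for Tet3, and −0.40 and −0.35 for Dnmt3a. For Dnmt3b it was −0.28 and −0.17, and for Tet1 −0.22 and −0.12. In the control and CpG-A libraries no such difference of the 9 genes exceeded 0.19 in size. All 25 DNA replication genes were above in both libraries, with a median difference of 0.78 and 0.70. Of 16 mitosis genes, 13 were above in both and 1 was below in both. Among them, Mki67 differed by −0.21 and 0.01. Transcript length also differed: the longest transcripts of the 5 genes above were 2060 (Eed) to 5876 (Dnmt1) bases. Those of Dnmt3a, Tet1, Tet2 and Tet3 were 9836 to 14766 bases, and that of Dnmt3b was 4324. The labels give no batch for these libraries, and what set them apart was not tested.

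**Figure D4:**
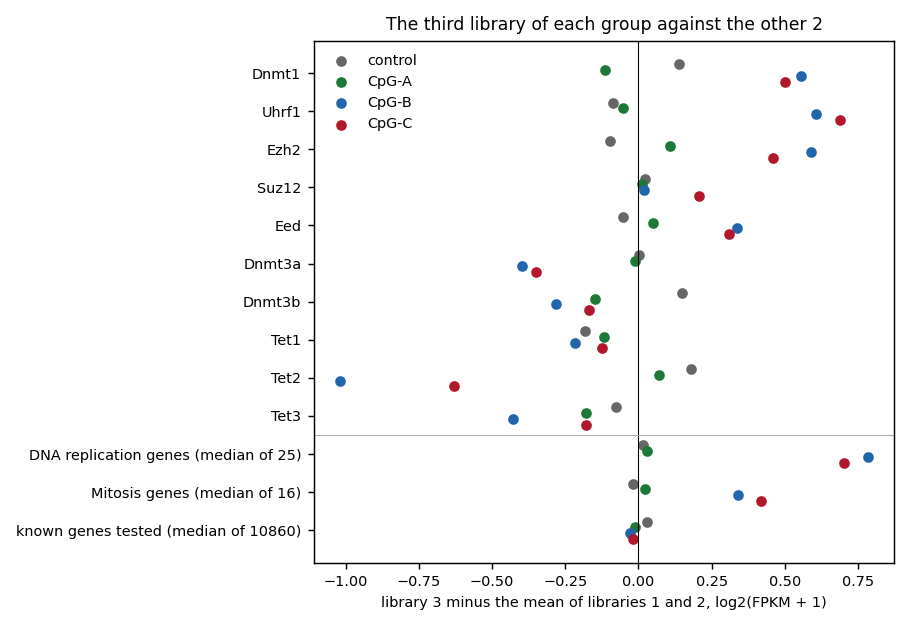
Difference on the log2(FPKM + 1) scale (x axis) between library 3 and the mean of libraries 1 and 2 of the same group, for the 10 genes and, below the line, the medians of DNA replication genes, mitosis genes and known genes tested. In the control and CpG-A all points of the 10 genes lie within 0.19 of 0, while CpG-B and CpG-C lie to the right for Dnmt1, Uhrf1, Ezh2 and Eed and to the left for Dnmt3a and Tet2.

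Genes of cell division rose in the same comparisons. Of 25 DNA replication genes, 22, 24 and 23 were called higher after CpG-A, CpG-B and CpG-C and 0 lower, with median log2 changes of 1.52, 1.56 and 1.71. All 16 mitosis genes were called higher with each class, with medians of 2.46, 3.09 and 3.25. The replication helicase subunit Mcm5 rose by 1.83, 1.77 and 1.84, the sliding clamp Pcna by 1.51, 1.32 and 1.55, and the proliferation marker Mki67 by 2.80, 3.21 and 3.47 (log2 changes). The change of Uhrf1 and Ezh2 was larger than the median of replication genes and smaller than that of mitosis genes in each comparison. The change of Dnmt1 was smaller than both medians.

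Over the 12 libraries, the patterns most like each gene were read from the Pearson correlation of log2(FPKM + 1) with 8090 known genes of at least 5 FPKM on average. These are descriptions, since libraries of a group share their treatment. Uhrf1 was closest to Rrm2, Rad54l and Zwilch (each r = 0.998). Ezh2 was closest to Chaf1a (0.998), Cdca5 (0.997) and Clspn (0.996), and Dnmt1 to Atp5b (0.996), Recql4 (0.994) and Rrm1 (0.994). Suz12 was closest to Atad2 (0.985) and Eed to Setd6 (0.974). Dnmt3a was closest to Atl3 (0.977), Sesn3 (0.971) and Tet2 (0.960), and Tet2 in turn to Trip12 (0.98) and Sesn3 (0.975). Tet3 was closest to Fam8a1 and Kdm2a (both 0.988), and Dnmt3b to Ppp6r1 (0.956).

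Other genes of these pathways were counted from 4 lists of 66 genes, of which 63 were tested. Beside the counts below, 23.6% of all genes tested were called higher and 42.1% lower after CpG-A. After CpG-B these were 25.7% and 51.8%, and after CpG-C 26.1% and 51.3%. Among known genes tested they were 32.8% and 22.1%, 34.8% and 35.3%, and 35.7% and 34.5%. Among 25 tested partners of DNA methylation and its removal, 6 rose and 7 fell after CpG-A, 8 and 8 after CpG-B, and 8 and 8 after CpG-C, with list medians of −0.04, −0.0051 and −0.0031. Hells, the remodeller that helps Dnmt enzymes reach packed DNA, was 7.37 ± 1.25 FPKM in the control and 31.7 ± 2.15, 24.1 ± 7.26 and 28.8 ± 11.2 after CpG-A, CpG-B and CpG-C (SD, n = 3), a log2 change of 1.98, 1.56 and 1.78 (each ± 0.24). Idh2, a mitochondrial enzyme that makes the 2-oxoglutarate used by Tet enzymes, rose from 9.35 ± 1.26 to 16.5 ± 0.722, 33.6 ± 4.79 and 30.5 ± 4.10 FPKM. Tdg, the glycosylase that cuts out oxidised methylcytosine, rose from 1.51 ± 0.254 to 2.36 ± 0.343, 2.64 ± 0.166 and 3.37 ± 0.434 FPKM. Zbtb4, a zinc finger protein that binds methylated DNA, fell from 15.6 ± 0.599 to 9.80 ± 0.443, 6.78 ± 1.98 and 7.14 ± 1.83 FPKM. Gadd45g fell from 36.7 FPKM to 22.5, 22.6 and 20.7 after CpG-A, CpG-B and CpG-C, and Cxxc5 from 51.5 to 33.5, 30.2 and 29.2. Uhrf2, the relative of Uhrf1, was 18.1 ± 1.07 FPKM in the control and 17.6 to 19.8 after the CpG classes and was not called, except after CpG-C without CpG-B 3 and CpG-C 3 (0.14, limma adjusted p = 0.0395).

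Among the 10 PRC2 partners, 5 rose and 3 fell after CpG-A, 4 and 5 after CpG-B, and 4 and 4 after CpG-C, with list medians of 0.24, −0.20 and 0.05. Phf19 and Phf1, related subunits that bring PRC2 to chromatin, moved in opposite directions. Phf19 rose from 2.98 ± 0.483 FPKM to 9.65 ± 0.936 after CpG-A, 19.2 ± 4.42 after CpG-B and 19.1 ± 3.75 after CpG-C. Phf1 fell from 81.6 ± 3.43 to 36.8 ± 4.53, 10.6 ± 1.63 and 10.8 ± 3.24 FPKM, log2 changes of −1.13, −2.85 and −2.85 (each ± 0.18). Jarid2, an accessory subunit, was 28.9 ± 1.63 FPKM in the control and 24.7 ± 0.682 after CpG-A, and fell to 10.4 ± 1.96 and 11.9 ± 1.75 after CpG-B and CpG-C. Epop rose from 5.02 ± 0.484 to 10.1 ± 1.29, 10.5 ± 2.09 and 12.6 ± 3.18 FPKM. The histone-binding subunits Rbbp4 and Rbbp7 were called higher with each class (log2 change 0.40 to 0.46 for Rbbp4 and 0.35 to 0.90 for Rbbp7), but on the TPM scale Rbbp4 was not called after CpG-B and CpG-C, nor Rbbp7 after CpG-B. Lcor fell from 1.70 ± 0.155 FPKM in the control to 1.15 ± 0.228, 0.613 ± 0.276 and 0.863 ± 0.106. In the control its level was near that of the unnamed loci, whose signal also fell, and the part of that low signal was not tested. The call of Lcor after CpG-A (−0.34 ± 0.14, limma adjusted p = 0.0458) was lost with a pseudocount of 0.1 (0.110).

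**Figure D5:**
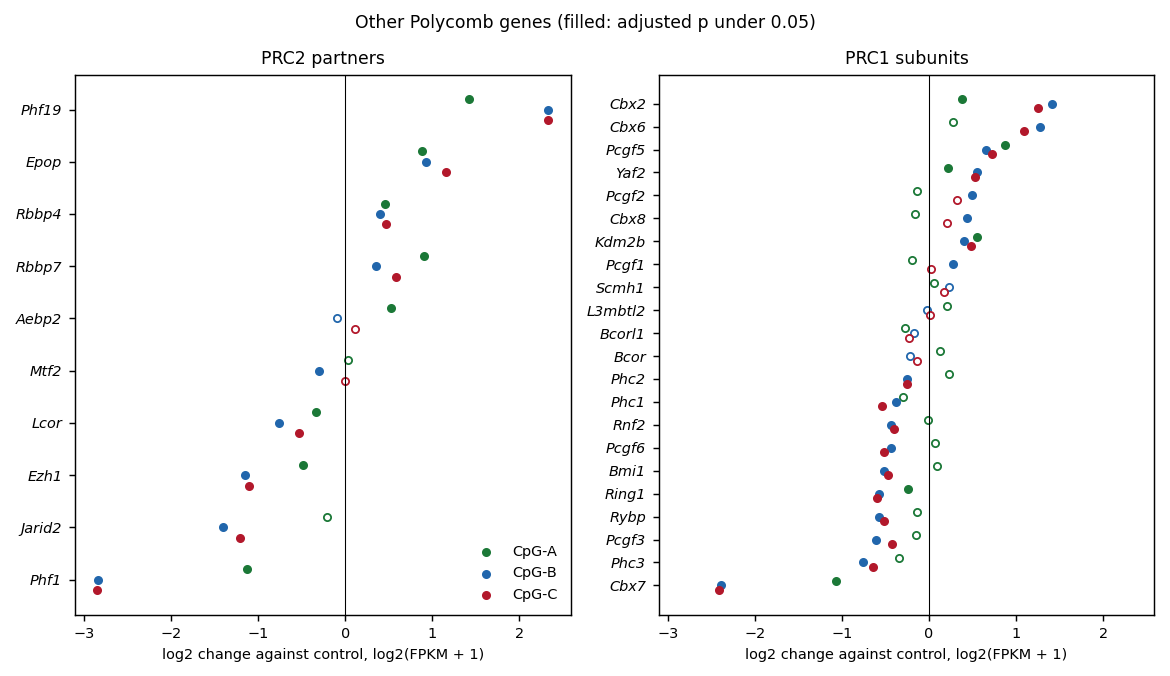
Log2 change against control on the log2(FPKM + 1) scale (x axes) of PRC2 partners (left) and PRC1 subunits (right) after CpG-A, CpG-B and CpG-C, with filled points for an adjusted p under 0.05. Phf19 lies at the top and Phf1 at the foot of the left panel, and on the right Cbx2 and Cbx6 lie opposite Cbx7.

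PRC1, the complex that binds the PRC2 mark and ubiquitinates histone H2A, had Cbx readers that moved in opposite directions. Of its 23 subunits tested, 4 rose and 2 fell after CpG-A, 9 and 10 after CpG-B, and 6 and 10 after CpG-C, with list medians of 0.06, −0.18 and −0.14. Cbx7 fell from 31.5 ± 3.11 FPKM to 14.5 ± 1.29 after CpG-A, 5.21 ± 0.457 after CpG-B and 5.14 ± 1.08 after CpG-C, log2 changes of −1.07, −2.39 and −2.42 (each ± 0.13). Cbx6 rose from 2.65 ± 0.290 to 7.88 ± 1.43 after CpG-B and 6.96 ± 2.0 after CpG-C, and Cbx2 from 0.623 ± 0.115 to 3.38 ± 0.947 and 2.88 ± 0.316. The catalytic subunit Rnf2 fell from 28.3 ± 1.02 to 20.7 ± 1.67 and 21.2 ± 1.02 FPKM after CpG-B and CpG-C, and its partner Bmi1 from 34.4 ± 0.918 to 23.8 ± 2.94 and 24.6 ± 3.30. With CpG-A neither was called (28.2 and 36.7 FPKM). Pcgf5 and Kdm2b, of variant forms of the complex, were called higher with each class, Pcgf5 by 0.87, 0.65 and 0.73 (each ± 0.11) and Kdm2b by 0.54, 0.41 and 0.48 (each ± 0.09).

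The enzymes that remove the PRC2 mark were not called higher with any class. Kdm6b, an inducible demethylase of lysine 27, was 22.1 ± 2.28 FPKM in the control and 18.2 ± 2.74 after CpG-A (−0.27 ± 0.15, limma adjusted p = 0.131, but 0.0341 to 0.0495 under 3 other scalings and 0.0469 without CpG-B 3 and CpG-C 3), and fell to 7.26 ± 1.21 after CpG-B (−1.49 ± 0.15) and 9.80 ± 1.65 after CpG-C (−1.10 ± 0.15). Kdm6a, its relative, was 19.6 ± 1.19 in the control, 18.5 ± 0.872 after CpG-A, 15.3 ± 3.58 after CpG-B and 16.8 ± 2.26 after CpG-C, and was called lower after CpG-B (−0.36, limma adjusted p = 0.0400). That change was −0.17 without CpG-B 3 and CpG-C 3 (0.0468), and on the TPM scale the fall after CpG-C was called as well (0.0238). Asxl1, a subunit of the complex that removes ubiquitin from histone H2A, was higher with each class (0.25, 0.60 and 0.60), though after CpG-A 3 other scalings lost the call (adjusted p = 0.209, 0.215 and 0.387). Of the 5 genes of this list that were tested, 1 rose and 0 fell after CpG-A, 1 and 2 after CpG-B, and 1 and 1 after CpG-C, with list medians of 0.10, −0.15 and −0.06.

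The partner genes were also compared between CpG-A and the other classes. Over the 63 partner genes tested, 14 were higher and 20 lower after CpG-B than after CpG-A, and 11 higher and 15 lower after CpG-C than after CpG-A, the 15 becoming 24 without CpG-B 3 and CpG-C 3. Of the known genes tested, 17.7% were higher and 29.2% lower after CpG-B than after CpG-A, and 15.4% and 24.3% after CpG-C than after CpG-A. By list, 5 rose and 4 fell of the DNA methylation partners after CpG-B against CpG-A, 1 and 7 of the PRC2 partners, 7 and 8 of the PRC1 subunits and 1 and 1 of the demethylase list. With CpG-C against CpG-A these were 4 and 2, 1 and 4, 5 and 7, and 1 and 2. Ezh1 was lower after CpG-B than after CpG-A by −0.66 ± 0.11 (limma adjusted p = 0.000565), Phf1 by −1.72 ± 0.18 and Cbx7 by −1.32 ± 0.13. Mat2a, which makes the methyl donor of the methyltransferases, was 103 ± 4.56 FPKM after CpG-A and 57.9 ± 1.48 after CpG-B. Between CpG-C and CpG-B, limma called 0 of the 63, and 7 had an unadjusted p under 0.05 (17 of 61, with 0 called, in the paired fit). The share of all genes under that unadjusted p was not counted, so these counts are not read as results about the partner genes. Against the control, 16 of the 63 were higher and 12 lower after CpG-A, 22 and 25 after CpG-B, and 19 and 23 after CpG-C. Without control library 3 the 12 became 7. The share of all genes called was not set beside this 7 or the 24 above, both from fits without some libraries. Neither count is read as a result about the partner genes. Of the known genes tested, 32.8% were higher and 22.1% lower after CpG-A, 34.8% and 35.3% after CpG-B, and 35.7% and 34.5% after CpG-C, so such calls were common.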

How the data were processed

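RNA of 12 libraries of mouse splenic B cells was measured, 3 in each of 4 groups, which were taken from the treatment labels, with replicate numbers from the titles. The authors deposited FPKM for each gene, a unit named in the file headers, and gave no counts. Build mm10 and the tools RSEM 1.2.8, Bowtie2 2.2.5, GATK, StringTie and HISAT stand in the submitters' processing notes, whose roles are not stated. The authors' own fold changes and p-values were not used. From the 28021 entries, 2 without a gene were dropped.

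FPKM are not counts, so limma 3.58.1 (R 4.3.3) was run with a variance trend on log2(FPKM + 1), for the 15853 genes above 1 FPKM in at least 3 of 12 libraries, with 4 group means in 1 fit, two-sided, and Benjamini-Hochberg adjustment over all of them, in 6 comparisons. The script was first tested on simulated data. Intervals are 95%. The median half-width of an interval was 0.29 on the log2 scale. Depth was estimated by taking low FPKM of genes with 1 transcript as whole fragments, and 93.8% to 96.0% of these values lay within 0.2 of one. The alternatives were a pseudocount of 0.1, a filter at 5 FPKM or none, 3 other scalings, known genes only, 2 groups per fit, no variance trend, a replicate block, and leaving out libraries.

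The genes and lists (partners of DNA methylation, PRC2, PRC1 and lysine 27 demethylation; DNA replication; mitosis; B, T, myeloid, NK, and erythroid and platelet markers) and the promoter motifs were chosen with earlier results of these data known, and no list was given a test. Of 156 list genes 152 were in the table. All 10 genes are named. Of each partner list the text draws on the 3 highest and 3 lowest called in each comparison, and on Ezh1, Hells, Uhrf2, Kdm6a, Kdm6b, Rbbp4, Rbbp7, Bmi1, Rnf2 and Tdg whatever their result. Likeness names up to 3 genes with the highest correlation. A few genes that these rules name are not reported here, though the counts and medians of their lists include them. Promoter windows are from RefSeq. Python 3.11.15, pandas 2.3.3 and matplotlib 3.10.9 were used.

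Whether numbers pair libraries was checked from the correlation of their deviations from the group means. It was 0.594, 0.538 and 0.745 for the numbers 1, 2 and 3 of CpG-B and CpG-C, which therefore counted as paired, although libraries 1 and 2 also correlated across numbers (0.509 and 0.551). For control and CpG-A it was 0.468, −0.117 and 0.518, and these did not.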

Additional observations from a re-analysis of the deposited data

How the results depend on the processing

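Over 24 settings, the calls of Uhrf1, Ezh2 and Dnmt1 as higher and of Tet3 as lower against the control held in every setting tried, with log2 changes of 2.25 to 2.97, 1.79 to 2.31, 0.77 to 1.26 and −1.16 to −0.48. Of the alternative values of single genes, 1166 kept direction and side of the threshold, 41 turned sign without being called in either fit (among them, with ranges over all settings, Dnmt3a after CpG-A, −0.03 to 0.11, and after CpG-B, −0.34 to 0.08, Eed after CpG-A, −0.01 to 0.19, and Tet2 after CpG-C, −0.01 to 0.42), 27 passed the threshold anew, 9 no longer did and 2 that were called in one of the fits turned sign. Those 2 were Suz12 after CpG-B on the TPM scale (−0.017) and Tet2 after CpG-B without CpG-B 3 and CpG-C 3 (0.26; −0.25 to 0.26 over all settings that leave out libraries). The cause of these changes was not tested. TPM scaling also moved the median of all genes to −0.49, −0.89 and −0.85 against the control. The filter and the pseudocount of 1 were applied after rescaling. On the TPM scale 19887 genes were tested, against 15853 in the main fit and 15952 after median-of-ratios scaling, so the counts cover different genes. TPM scaling called 2917 genes higher and 11114 lower after CpG-A, against 3747 and 6679 in the main fit. After CpG-B these were 2880 and 13428, against 4075 and 8219. After CpG-C they were 3051 and 13080, against 4142 and 8126. Between CpG-B and CpG-A, 2082 of all genes were higher and 4992 lower, 2645 and 3293 after median-of-ratios scaling and 1558 and 8919 on the TPM scale. Between CpG-C and CpG-A these were 1815 and 4641, 2251 and 3062, and 1398 and 8173, and between CpG-C and CpG-B 18 and 11 became 17 and 4 on the TPM scale.

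The number of the 10 genes called lower against the control was 2 without a filter with each class, where Tet1 was added, and on the TPM scale 2, 4 and 3 after CpG-A, CpG-B and CpG-C. Between CpG-B and CpG-A, 2 were called, all lower, with a pseudocount of 0.1 or with known genes only, and 4 on the TPM scale. Between CpG-C and CpG-A, 0 were called with the filter at 5 FPKM, which removes Dnmt3b, 2 with median-of-ratios or upper-quartile scaling (1 higher), and 2 lower on the TPM scale. Of the partner genes, 19 were lower after CpG-A than in the control after median-of-ratios scaling, and on the TPM scale 9 were higher after CpG-B and 7 after CpG-C than after CpG-A. Among the partner values named, any 1 scaling cost at most 8 of 137 their call.

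Leaving out libraries, 1 in turn or CpG-B 3 and CpG-C 3 together, gave 5 to 7 of the 10 genes called after CpG-A against the control, 5 to 7 after CpG-B and 5 to 8 after CpG-C. Of these 4 to 6, 4 to 5 and 4 to 6 were higher, and 1 to 1, 1 to 2 and 1 to 2 lower. Between CpG-B and CpG-A it gave 1 to 3, all lower, and between CpG-C and CpG-A 0 to 3 (0 to 1 higher, 0 to 2 lower). Partner genes lower after CpG-A than in the control numbered 7 to 20, and lower after CpG-C than after CpG-A 12 to 24. The shares of all genes called in the fits without some libraries are not given here. These ranges are therefore not read as results about the 10 genes or the partner genes.

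With the replicate number as a block, Tet3 between CpG-B and CpG-A (−0.30, limma adjusted p = 0.0203) and Uhrf1 between CpG-C and CpG-A (0.47, 0.0397) were called as well, which made 2 genes in each comparison (2 lower, and 1 higher with 1 lower). In the paired fit of CpG-B and CpG-C alone, added after seeing the data, 0 of the 9 genes and 0 of the partner genes were called, and over all genes 40 were higher and 46 lower. Libraries of CpG-A and CpG-B with the same number did not deviate together (0.014, −0.045 and −0.039), and the block changed no other call of the 10 genes. Depth limits Tet1, which rests on an estimated 14 to 152 fragments.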
